A study of Mus musculus with 20 samples.

Results

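The 9 genes described here, Epcam, Muc1, Cldn3, Cldn4, Cldn7, Tjp3, Esrp1, Grhl2 and Elf3, encode adhesion proteins, tight junction proteins and regulators of epithelial cells. They were taken by name from the deposited table, and each had 1 row with a value in every library of the BC (breast cancer) model, so they are 9 of 15465 genes with values there. The libraries compared were RNA sequencing of bulk tumour tissue: 4 BC lung metastases and 4 BC primary tumours of the same 4 mice, all derived from 4T1, a mouse mammary carcinoma line, in an orthotopic model and all sampled at 28 days; they are numbered by mouse as metastasis 1 to 4 and primary tumour 1 to 4. The series also holds 12 libraries of a pancreatic model, which are not used here because their values do not line up with the gene names of the table (Spearman's rho of the BC and pancreatic means across rows, which are not independent replicates, was 0.102). All BC tumours derive from a single cell line, and the labels used here give no strain of the host mice. Values are normalised read counts, reads per 1000000 of a scaled library; depth was 15447918 to 28995834 reads per library, and no member had fewer than 36 reads in any library.

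Epithelial cells hold to each other through junctions near their free surface. Claudins are membrane proteins that form the strands of the tight junction and set which ions pass between cells, and scaffold proteins of the zonula occludens family, of which Tjp3 encodes a member, tie them to the cytoskeleton. Epcam is a cell adhesion protein of simple epithelia that binds claudin-7, and Muc1 is a heavily glycosylated mucin of the free surface. Esrp1 is a splicing factor that keeps epithelial isoforms, Grhl2 a transcription factor that acts on junction genes, and Elf3 an ETS transcription factor of epithelia. Normal alveolar and airway epithelium of the lung also makes many of these transcripts.

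The 9 members did not move together. Muc1 rose in metastases and Cldn4 fell, and these were the only members called among the 9 (limma, adjusted p under 0.05 over all genes tested). Over the 14003 genes tested, 7.18% were called higher and 1.96% lower in metastases, so 1 higher and 1 lower of 9 is not read as a property of the group. All 9 members passed the filter on low values, a normalised read count of 1 or more in 4 or more libraries. The log2 change was positive for 5 members and negative for 4, with a median of 0.34, beside -0.06 over all genes tested. The 4 lung metastases lay wholly above the 4 primary tumours for Muc1 and wholly below them for Cldn4, while the groups overlapped for the other 7. Over all genes tested, 10.4% had all 4 metastases above all 4 primary tumours and 7.56% had them all below, 17.9% together. In bulk tissue, fewer cells of a type and less RNA per cell cannot be told apart, and this holds for every value below.

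The stretches before the starts of 4 members are shown because Cldn4 and Muc1 are the called genes, Epcam ran in the order of Cldn4 among the lung metastases, and Cldn3 is the RefSeq neighbour of Cldn4 and had a change of the opposite sign. Each is the 250 bases before the annotated start, 5′ to 3′ on the gene's own strand, from RefSeq (GRCm38.p6, a later build than the authors' mm9). Capitals mark the E-box letters CACCTG or, for the other strand, CAGGTG, the element that Snail and Zeb repressors are known to bind in epithelial genes.
Muc1, chr3:89228806-89229055, plus strand: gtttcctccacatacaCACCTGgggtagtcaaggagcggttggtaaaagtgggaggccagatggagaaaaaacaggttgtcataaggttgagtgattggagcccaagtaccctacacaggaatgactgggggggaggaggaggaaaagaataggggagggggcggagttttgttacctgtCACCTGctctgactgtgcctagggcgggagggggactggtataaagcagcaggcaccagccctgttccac
Cldn4, chr5:134946935-134947184, minus strand: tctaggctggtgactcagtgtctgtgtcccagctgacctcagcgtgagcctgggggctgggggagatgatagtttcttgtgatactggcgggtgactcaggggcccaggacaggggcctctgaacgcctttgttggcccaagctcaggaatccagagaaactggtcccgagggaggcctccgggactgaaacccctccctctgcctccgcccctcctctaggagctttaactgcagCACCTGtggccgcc
Epcam, chr17:87635729-87635978, plus strand: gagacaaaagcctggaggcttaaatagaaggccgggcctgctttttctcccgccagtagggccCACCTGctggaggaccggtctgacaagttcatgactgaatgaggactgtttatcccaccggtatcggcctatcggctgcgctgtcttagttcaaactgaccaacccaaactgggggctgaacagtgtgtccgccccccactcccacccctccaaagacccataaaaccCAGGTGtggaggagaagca
Cldn3, chr5:134985964-134986213, plus strand: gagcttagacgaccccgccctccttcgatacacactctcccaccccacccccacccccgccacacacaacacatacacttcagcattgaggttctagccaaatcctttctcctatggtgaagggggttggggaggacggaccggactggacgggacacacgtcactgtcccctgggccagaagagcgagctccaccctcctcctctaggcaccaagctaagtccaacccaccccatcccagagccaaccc

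RefSeq windows were at hand for 7 of the 9 members, all but Esrp1 and Grhl2. The E-box letters stood in a window of 6 of the 7, Muc1, Cldn4, Epcam, Elf3, Tjp3 and Cldn7 (in 1 of its 2 windows), and not in that of Cldn3; of 27025 genes with a window of the same length, 19.4% held them. Muc1 had them at -234 and -70 from the start (first base of the match), Epcam at -187 and -19, and Cldn4 at -14. The members that hold these letters include the gene that rose, the gene that fell and 4 that were not called. The other 2 motifs searched on both strands were the ETS core CGGAAG, in 1 of 7 members against 15.3% of all genes, and a grainyhead-like motif, ACCGGTT, in 0 of 7 against 0.951%. None of the 3 strings holds another. The E-box was chosen with the members' windows in view, and a match is a description of letters, not of binding.

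Muc1 had normalised read counts of 64.5, 47.3, 119 and 43.6 in the lung metastases of mice 1 to 4, against 1.83, 7.77, 1.99 and 1.59 in the primary tumours. Every lung metastasis was at least several-fold above every primary tumour, and the primary tumour of mouse 2 stood above the other 3. The means were 68.6 ± 34.8 in metastases and 3.29 ± 2.99 in primary tumours (SD, n = 4 each), a 20.8-fold ratio (limma adjusted p = 0.000376). The log2 change was 4.11 with an SE of 0.444, and the call held under all 19 alternatives (3.1 to 4.63). Without primary tumour 2 the log2 change was 4.52. Muc1 was highest in metastasis 3, followed by 1, 2 and 4. The 14 lung alveolar markers summed to 4743 to 14923 in metastases and to 103 to 145 in primary tumours. Among the metastases they ran in the order 3, 2, 1 and 4, with the same highest and lowest metastasis as Muc1 and with metastases 1 and 2 exchanged. In the primary tumours 7 of the 14 stayed under 1 in every library. The 7 airway markers in the table summed to 2285 to 22296 in metastases and 3.74 to 5.04 in primary tumours. Their sum was also highest in metastasis 3, followed by 1, 4 and 2. The part of normal lung epithelium in the rise of Muc1 was not tested. In primary tumour 2, where Muc1 was highest of the 4, the alveolar markers summed to 123 and the airway markers to 4.65, within the range of the other primary tumours, but Abca3 made up most of the alveolar sum in every primary tumour (98.3 in primary tumour 2 and 87.8 to 99.2 in the others). Markers named after their values were seen went both ways. Sftpc stood at 1.89 in primary tumour 2 and 1.03 to 1.65 in the others. Sftpa1 stood at 0.552 there against 0.135 to 0.238, and Cxcl15 at 0.71 against at most 0.0674. Hopx was lower in primary tumour 2, at 1.3 against 3.45 to 17.2 in the others, and so was Rtkn2, at 2.68 against 2.85 to 5.48. The part of lung epithelium in the Muc1 level of primary tumour 2 was not tested.

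Epcam stood at 65.1, 30.2, 38.9 and 109 in the lung metastases of mice 1 to 4, against 89.2, 118, 104 and 180 in their primary tumours. It was lower in the metastasis of all 4 mice, but metastasis 4 lay above primary tumours 1 and 3. The means were 60.9 ± 35.6 in metastases and 123 ± 40.1 in primary tumours, and the difference did not pass (log2 change -1.12, SE 0.371, limma adjusted p = 0.0932). Epcam came past the threshold in the fit with the mouse as a block (limma adjusted p = 0.0373), in that with array weights (0.018) and when metastasis 4 was left out (0.015); its 19 alternatives ran up to 0.257. The block called 7.94% of all genes (1.26% lower) and array weights 16.3% (5.33% lower), against 9.13% (1.96% lower) in the fit used here.

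**Figure D1:**
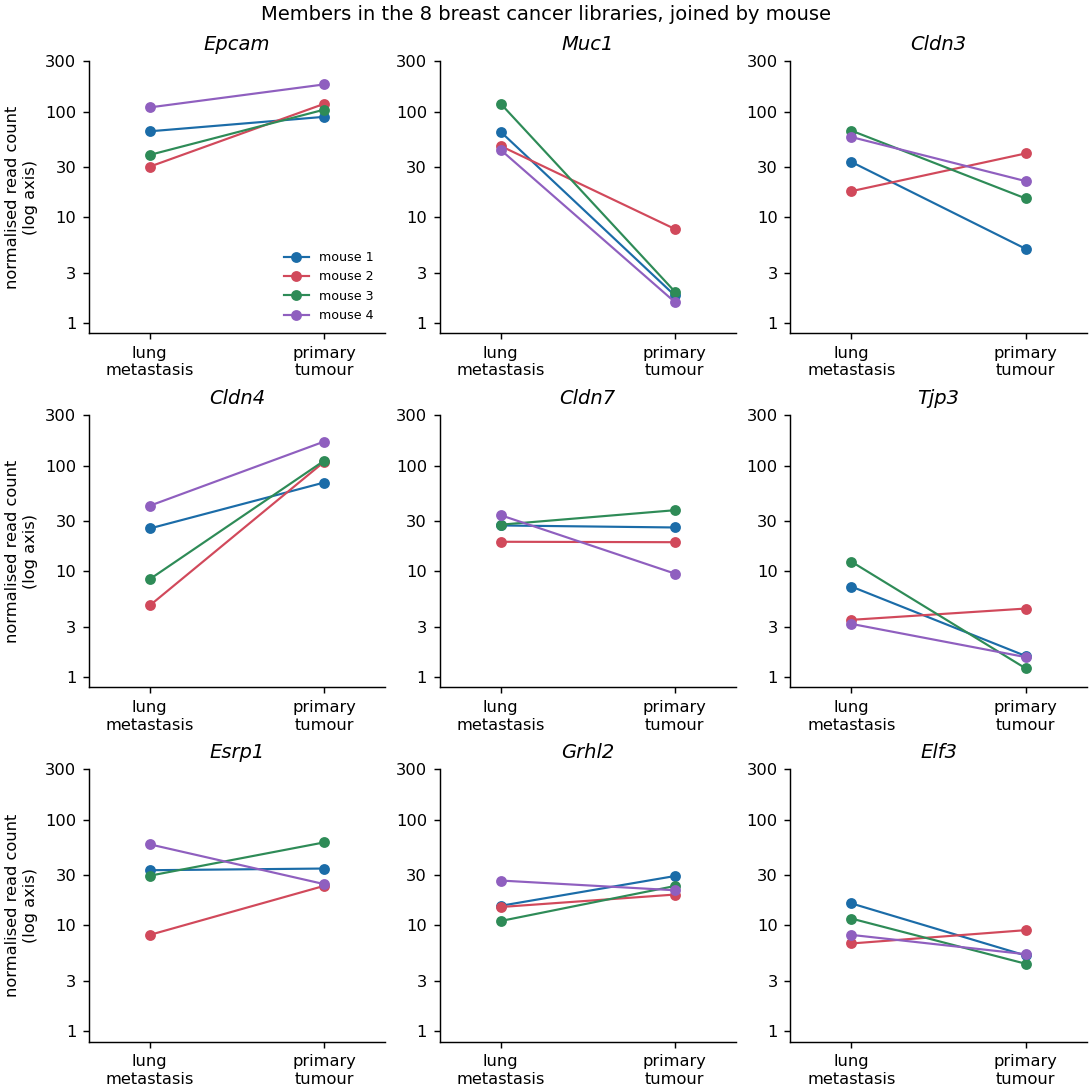
Normalised read count (log axis) of each member in the lung metastasis (left) and primary tumour (right) of each of 4 mice, 1 line per mouse. Muc1 is higher and Cldn4 and Epcam are lower in the lung metastasis of all 4 mice, while the lines of the other members cross or run both ways.

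Among the claudins, Cldn4 was the member with a fall. It stood at 25.5, 4.77, 8.45 and 41.8 in the lung metastases of mice 1 to 4, against 69.2, 108, 111 and 169 in the primary tumours. All 4 lung metastases were below all 4 primary tumours, and both tissues were highest in mouse 4. The means were 20.1 ± 17 in metastases and 114 ± 41 in primary tumours (n = 4 each), 5.68-fold lower in lung metastases (log2 change -2.8, SE 0.559, limma adjusted p = 0.0109). The call of Cldn4 held under all 19 alternatives, with adjusted p from 0.000365 to 0.0454 and log2 changes from -3.28 to -2.32. Among lung metastases Cldn4 varied 8.76-fold, more than any other member, and among primary tumours 2.44-fold.

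Cldn3, which lies next to Cldn4 on chromosome 5 with no RefSeq gene between them and on the other strand, had a change of the opposite sign that did not pass. It stood at 33.4, 17.7, 66 and 57.5 in the lung metastases, against 5.05, 40.2, 15.1 and 22 in the primary tumours. It was higher in the metastasis of mice 1, 3 and 4 and lower in that of mouse 2, whose primary tumour was the highest. The means were 43.7 ± 22.2 in metastases and 20.6 ± 14.8 in primary tumours (log2 change 1.19, 95% interval -0.06 to 2.45, limma adjusted p = 0.242). Read on their own strand, transcripts of Cldn3 and Cldn4 share no stretch of 50 bases with each other or with transcripts of any other gene in GENCODE M21. The same held for the other members except Grhl2, with 5 of 8747. Exon bases shared with genes on the opposite strand are a separate matter and are given below.

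Cldn7 stood at 27.2, 19.1, 27.6 and 34 in the lung metastases, against 26, 18.9, 37.9 and 9.55 in the primary tumours. The lung metastases lay within the range of the primary tumours, and 3 of 4 mice were higher in the metastasis. The means were 27 ± 6.13 in metastases and 23.1 ± 12 in primary tumours (log2 change 0.34, 95% interval -0.48 to 1.16, limma adjusted p = 0.616), and the sign turned without primary tumour 4.

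Tjp3, the zonula occludens scaffold, was the lowest member, at 7.2, 3.49, 12.4 and 3.19 in the lung metastases, against 1.59, 4.46, 1.21 and 1.55 in the primary tumours. It ran in the order of Muc1 among the lung metastases (3, 1, 2, 4), and primary tumour 2 again stood above the other 3. The means were 6.56 ± 4.28 in metastases and 2.2 ± 1.51 in primary tumours, and the difference did not pass (log2 change 1.17, SE 0.447, limma adjusted p = 0.145). Array weights alone brought it past the threshold (0.0444), in a fit that called 11% of all genes higher; its 18 alternatives ran up to 0.308. Tjp3 shares 40 of its 3142 exon bases with Apba3 on the opposite strand, whose mean was 24.7 in metastases and 28.1 in primary tumours; the counting is not stated to use strand.

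**Figure D2:**
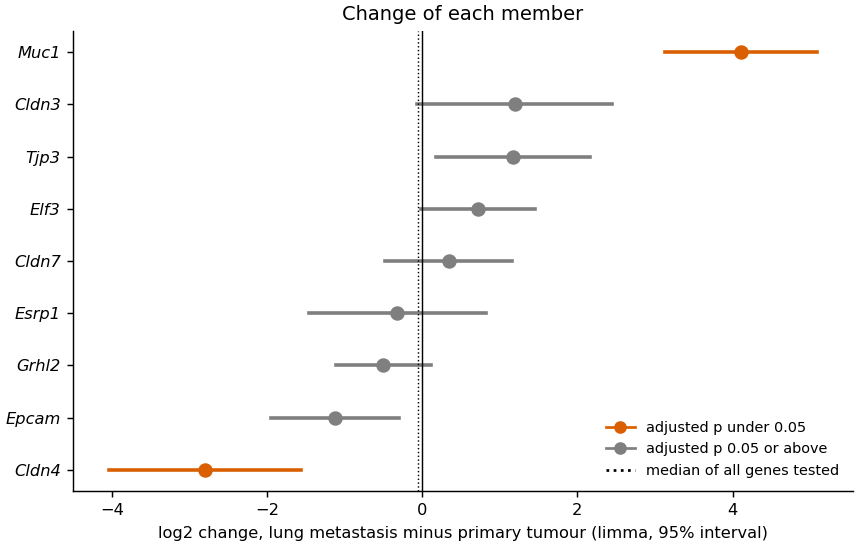
Log2 change of each member, lung metastasis minus primary tumour, with its 95% interval from limma (horizontal axis); coloured points passed an adjusted p of 0.05 and the dotted line is the median of all genes tested. Muc1 at 4.11 and Cldn4 at -2.8 stand at the ends, and the other 7 lie between -1.12 and 1.19.

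The 3 regulators did not pass. The splicing factor gene Esrp1 stood at 33.3, 8.15, 29.5 and 58.5 in the lung metastases, against 34.5, 23.7, 61 and 24.6 in the primary tumours. Mice 1 to 3 were lower in the metastasis and mouse 4 higher, and the means were 32.4 ± 20.6 in metastases and 35.9 ± 17.4 in primary tumours (log2 change -0.32, 95% interval -1.46 to 0.82, limma adjusted p = 0.744). Its sign turned without metastasis 2. Grhl2 stood at 15.3, 14.9, 11 and 26.6 in the lung metastases, against 29.3, 19.6, 23.6 and 21.5 in the primary tumours. Only metastasis 4 reached the range of the primary tumours, and the means were 17 ± 6.7 in metastases and 23.5 ± 4.2 in primary tumours (log2 change -0.5, 95% interval -1.11 to 0.11, limma adjusted p = 0.313). Grhl2 was the steadiest member among primary tumours, with a 1.5-fold range.

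Elf3 stood at 16.2, 6.76, 11.6 and 8.15 in the lung metastases, against 5.21, 9.03, 4.35 and 5.35 in the primary tumours. As with Cldn3, Muc1 and Tjp3, primary tumour 2 held the highest value of its group, and as with Cldn3 and Tjp3, mouse 2 was the mouse with the lower value in the metastasis. The means were 10.7 ± 4.2 in metastases and 5.99 ± 2.08 in primary tumours (log2 change 0.72, 95% interval -0.02 to 1.45, limma adjusted p = 0.228). Exons of Grhl2 share 169 bases with Gm16136 on the opposite strand and those of Elf3 share 162 with Gm26642, and Cldn3 shares 40 with Wbscr25.

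Per kilobase of merged exon (GENCODE M21), the members changed places between the tissues. In lung metastases Cldn3 (a normalised read count per kilobase of 34.7 ± 17.6), Muc1 (30.6 ± 15.5) and Epcam (29.5 ± 17.3) led and did not differ beyond their spread. Cldn7 (18.3 ± 4.15), Cldn4 (11.1 ± 9.37) and Esrp1 (8.15 ± 5.2) came next, and Elf3 (5.1 ± 2), Grhl2 (3.18 ± 1.26) and Tjp3 (2.09 ± 1.36) were lowest. In primary tumours Cldn4 and Epcam led with normalised read counts per kilobase of 62.9 ± 22.6 and 59.6 ± 19.4, which did not differ beyond their spread. Cldn3 (16.4 ± 11.8), Cldn7 (15.6 ± 8.1) and Esrp1 (9.06 ± 4.38) followed with overlapping ranges, then Grhl2 (4.41 ± 0.788), Elf3 (2.86 ± 0.992), Muc1 (1.47 ± 1.33) and Tjp3 (0.701 ± 0.481). By its mean per kilobase Muc1 was at place 2 in metastases and place 8 in primary tumours, and Cldn4 at place 5 in metastases and place 1 in primary tumours.

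**Figure D3:**
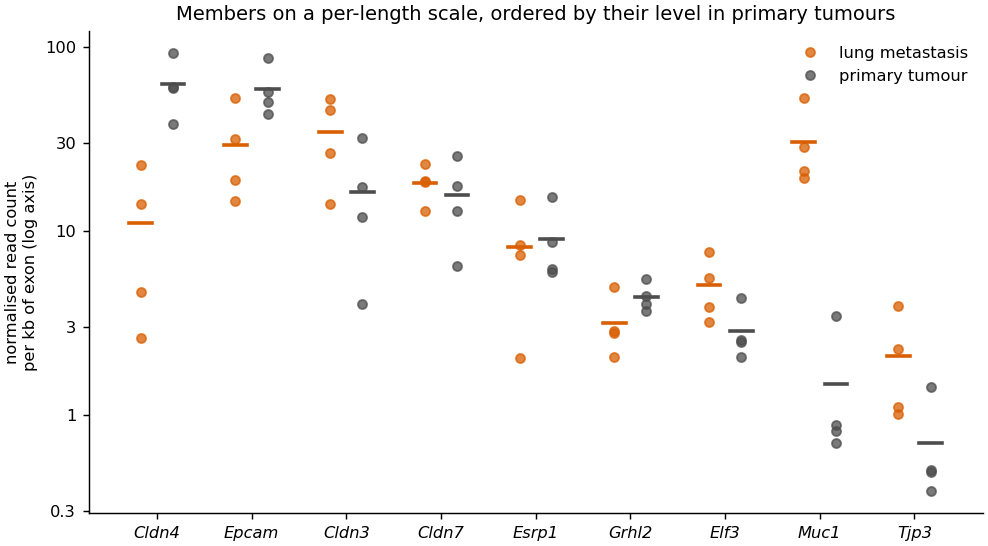
Normalised read count per kilobase of exon (log axis) of each member in the 4 lung metastases (left of each pair) and the 4 primary tumours (right), with a bar at the mean, ordered by the level in primary tumours. Muc1 lies between 19.4 and 53.1 in metastases and 0.707 and 3.47 in primary tumours, and Cldn4 between 2.63 and 23 in metastases and 38.1 and 92.8 in primary tumours.

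The lung metastases differed from each other in the members' levels. Of the 9 members 5, Epcam, Cldn4, Cldn7, Esrp1 and Grhl2, were highest in metastasis 4, and 3, Muc1, Cldn3 and Tjp3, were highest in 3. Epcam, Cldn4 and Esrp1 ran in the same order, 4, 1, 3 and 2, and 6 members were lowest in metastasis 2. Metastasis 4 had the lowest alveolar sum (4743) and the highest mean of Krt8 and Krt18 (1314), keratins of simple epithelium. Metastasis 3 had the highest alveolar sum (14923), the highest endothelial sum (1919 against 398 to 754 in the other metastases) and the lowest keratin mean (211). Among the primary tumours, 4 members were highest in primary tumour 2, which had the lowest keratin mean (539, against 937 to 1231), the lowest sum of 6 fibroblast markers (668, against 1967 to 2169) and the highest sum of 6 endothelial markers (576, against 108 to 221). The part of these differences in tissue makeup in the members' values was not tested.

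Set against Krt8 and Krt18 of the same library, Cldn4 was lower in the lung metastasis of all 4 mice, with log2 differences of -0.37, -4.68, -1.56 and -2.36 in mice 1 to 4. The keratin mean itself was 587, 609, 211 and 1314 in the lung metastases, against 1231, 539, 937 and 1031 in the primary tumours, lower in the metastasis of mice 1 and 3 and higher in that of mice 2 and 4. Muc1 relative to these keratins was higher in all 4 mice, by 2.43 to 8.06. Epcam relative to them was higher in mice 1 and 3 (0.61 and 0.73) and lower in mice 2 and 4 (-2.15 and -1.07), so its lower level in all 4 metastases was not kept on this scale. Cldn3, Cldn7, Tjp3, Esrp1 and Elf3 were each higher in mice 1, 3 and 4 and lower in mouse 2, and Grhl2 lay between -0.57 and 1.05. These differences are given as values, with no test.

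**Figure D4:**
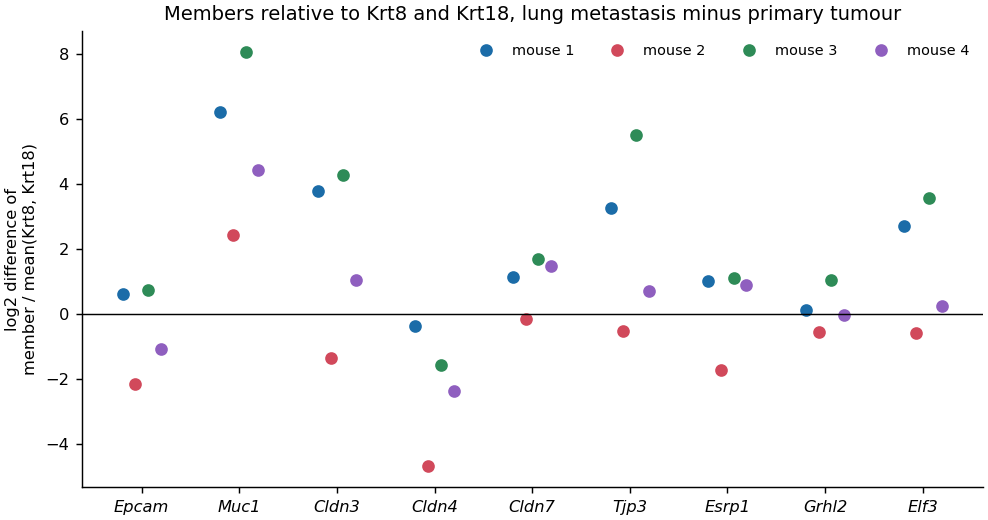
Log2 of each member over the mean of Krt8 and Krt18 in the same library, lung metastasis minus primary tumour, 1 point per mouse (vertical axis). All points of Muc1 lie above 0 and all points of Cldn4 below it, and mouse 2 is the lowest for all members.

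Of 23 tested tight junction genes outside the members, 6 rose and 1 fell in metastases, where 7.18% of all genes were called higher and 1.96% lower. Their median log2 change was 0.47 (-0.06 over all genes tested). In the same metastases limma called 13 of 14 alveolar and 4 of 6 tested airway markers higher, and their part in the rise of other epithelial genes, here and in the lists that follow, was not tested. Cldn18, the claudin of alveolar epithelium, stood at 150 ± 93.8 in metastases, against 1 read in each primary tumour, and Cldn10 at 13.2 ± 6.6 against 0.516 ± 0.38 (limma adjusted p = 7.52e-06 and 0.000546). The polarity gene Pard6b (26.1 ± 18.6 against 4.48 ± 1.81) and the tricellular junction gene Ildr1 (3.15 ± 1.88 against 0.119 ± 0.0974) rose too. Cldn2, named after its value was seen, was the gene that fell, at 2.02 ± 1.54 against 9.06 ± 4.28 (limma adjusted p = 0.0296; 0.0751 with the mouse as a block). Ocln (15.6 ± 13.9 against 5.73 ± 3.34, adjusted p = 0.331) and the scaffold gene Tjp1 (157 ± 65.8 against 133 ± 8.59, adjusted p = 0.777) did not pass. The count of tight junction genes that rose was 2 without primary tumour 1, 3 without primary tumour 4 and 2 by edgeR with the mouse as a block, a fit that ended the calls of Cldn10 (adjusted p = 0.0591) and Ildr1 (0.0765). The call of Pard6b ended without primary tumour 1 (0.0524), that of Ildr1 without metastasis 1 or primary tumour 1 or 4 (0.0524 to 0.0557), and that of Cldn2 without metastasis 2 or 4 or primary tumour 1, 2 or 4 (0.0521 to 0.0949).

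Of 18 adherens junction and desmosome genes, 0 rose and 1 fell by limma, with a median log2 change of 0.16. At an unadjusted p under 0.05 limma had 5 higher and 3 lower; edgeR called 0 higher and DESeq2 1. The genes that fell numbered 2 without metastasis 3 and 3 without metastasis 4. The gene that fell was Pkp1, a plakophilin of desmosomes, at 0.214 ± 0.403 in metastases and 5.83 ± 5.97 in primary tumours (limma adjusted p = 0.0216), and its call ended without metastasis 1 (0.0618) or primary tumour 1 (0.0506) and with edgeR (0.0658; 0.121 with the mouse as a block). Cdh1, which encodes E-cadherin, stood at 108 ± 47.8 against 57.6 ± 26 (adjusted p = 0.199), Pkp3 at 38.8 ± 17.4 against 79.9 ± 18.7 (0.09) and the P-cadherin gene Cdh3 at 6.36 ± 3.27 against 1.74 ± 0.335 (0.0544), none past the threshold. Cdh3 passed without metastasis 1 (0.02), with array weights (0.0403), without the intensity trend (0.0398) and by DESeq2 (0.00178). Pkp3 passed without metastasis 3 (0.0432) or 4 (0.0474) and with array weights (0.00848). Ppl, which encodes periplakin, stood at 71.1 ± 11 against 51.2 ± 6.13 (0.143).

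Of 17 tested epithelial regulators and partners, 5 rose and 0 fell (7.18% and 1.96% of all genes), with a median log2 change of 0.41. The count of 0 is limma's; at an unadjusted p under 0.05 limma had 1 lower, edgeR called 0 and DESeq2 1, and limma called 1 without metastasis 3 or without 4. The tetraspanin gene Tspan8 (79.1 ± 33 in metastases against 5.42 ± 2.56 in primary tumours) and Elf5, an ETS factor like Elf3 (9.35 ± 7.35 against 0.285 ± 0.358), rose, as did Muc20, a membrane mucin gene (1.74 ± 0.133 against 0 reads in the 4 primary tumours). The call of Muc20 ended by edgeR with the mouse as a block (adjusted p = 0.0855). Esrp2, the paralog of Esrp1, stood at 6.52 ± 4.12 against 5.02 ± 1.33 (adjusted p = 0.78).

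Of the 4 simple keratins Krt19 rose, at 123 ± 48 in metastases and 14.1 ± 5.72 in primary tumours (limma adjusted p = 0.000337), and Krt7, Krt8 and Krt18 did not pass (adjusted p 0.367 to 0.862). Krt19 was highest in metastasis 4 (188), where the alveolar sum was lowest. Mesothelial cells also carry Krt19, and the 7 mesothelial markers summed to 181 to 520 in metastases and 55 to 143 in primary tumours. In the primary tumours Msln alone stood at 54.8 to 143, and the other 6 stayed under 1 in every library. The part of mesothelial cells in the Krt19 level was not tested. Of 7 tested mesenchymal transition genes 0 rose and 1 fell by limma, with a median log2 change of -0.39. At an unadjusted p under 0.05 limma had 0 higher and 3 lower. On recovered reads edgeR called 0 higher and 0 lower, and DESeq2 called 0 higher and 2 lower. Zeb1 had no values, and Cdh2, below the filter and not tested, stood at 2.38 ± 0.992 in metastases against 0.561 ± 0.386. Twist2 was the gene that fell (0.548 ± 0.482 against 3.89 ± 2.16, limma adjusted p = 0.0329; 0.0544 with the mouse as a block, and 0.0577 to 0.114 without metastasis 1, 2 or 4 or primary tumour 3 or 4). Among genes for repressors of the E-box, Snai1 stood at 19.4 ± 2.74 in metastases and 25.9 ± 4.57 in primary tumours (adjusted p = 0.311), and Snai2 and Zeb2 did not pass either (0.62 and 0.73). Fn1 (2070 ± 1155 against 4743 ± 1154, adjusted p = 0.114), Twist1 (20.3 ± 10.2 against 39 ± 7.08, 0.15) and Vim (2727 ± 1129 against 3112 ± 171, 0.683) did not pass. Fn1 passed without metastasis 4 (0.0493), with array weights (0.0156) and by DESeq2 (0.0289).

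**Figure D5:**
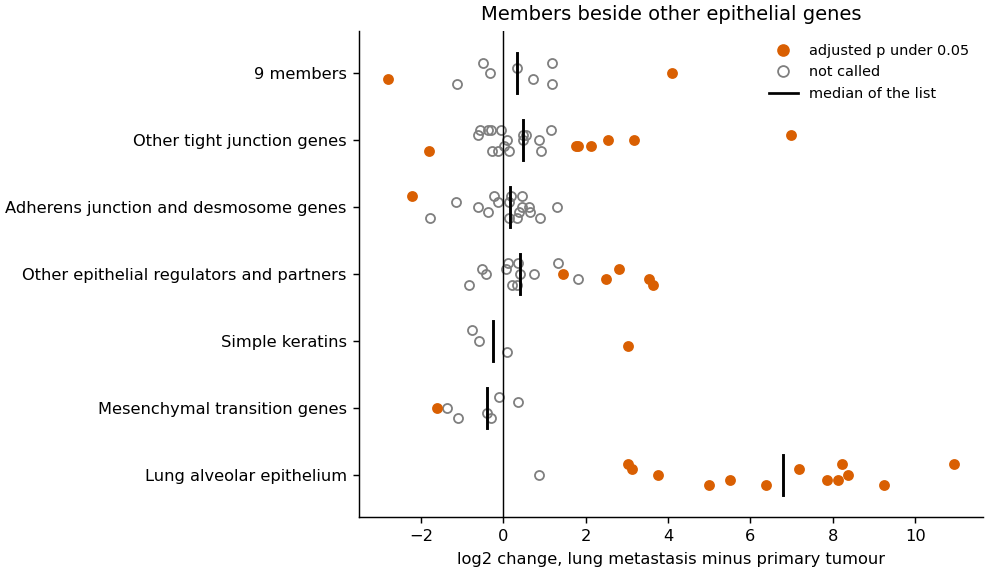
Log2 change, lung metastasis minus primary tumour (horizontal axis), of the 9 members, of the tested genes of 5 lists and of 14 lung alveolar markers; filled points passed an adjusted p of 0.05 and the bar is the median. The members spread from -2.8 to 4.11 around a median of 0.34, whereas the alveolar markers have a median of 6.78.

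Each list of mammary and skin epithelial markers summed to at most 43.8 in any library. The 5 basal mammary markers summed to 4.03 to 43.8 in metastases and 9.37 to 26.9 in primary tumours, led by Krt14 and Krt17. The 4 mammary luminal markers in the table, led by Esr1 and Prlr, summed to 9.73 to 18.9 in metastases and 21.1 to 39.9 in primary tumours, and 2 skin markers, Krt10 and Lor, to 3.18 to 14.2 in metastases and 6.67 to 20 in primary tumours. The 6 leukocyte markers, led by Itgam and Csf1r, summed to 560 to 1509 in metastases and 381 to 835 in primary tumours. The alveolar list was led by Sftpc and Sftpa1, the airway list by Scgb1a1 and Cyp2f2, the mesothelial list by Msln and Upk3b, the fibroblast list by Col3a1 and Col1a2 and the endothelial list by Cldn5 and Pecam1. Fibroblast markers summed to 1222 to 2377 in metastases and 668 to 2169 in primary tumours.

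The mean of the standardised member profiles over the 8 libraries was followed most closely by 1110007C09Rik, P4ha2, Fbxw7, Stard10 and Clk2 among genes with a mean of at least 5, with Pearson's r from 0.854 to 0.968. The members themselves had r between 0.08 (Grhl2) and 0.75 (Esrp1) with that mean, so it stands for few of them. These r values are descriptions over 8 libraries that share 4 mice and 2 tissues.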

How the data were processed

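Per the labels' protocols, total RNA came from an RNeasy kit and went into TruSeq RNA-seq libraries. The deposited signal is a normalised read count, each gene's reads over a library size that was itself scaled. The build is mm9, per the submitters' processing notes; aligner, counter and annotation: not given in the sources used here. The design had assumed CPM, but totals of the BC columns lay between 962401 and 1044330, which plain CPM would not give. Every value was a whole multiple of 1 read within 0.05 reads, or within a margin in proportion to the count for very high counts (100% of values). This recovered the reads.

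From these, limma 3.58.1 (R 4.3.3) with an intensity trend was fitted to log2(value + 1) of the 14003 genes that reached 1 in 4 or more of the 8 BC libraries, with Benjamini-Hochberg adjustment over all of them and a threshold of 0.05; low genes change more than this scale shows. All adjusted p-values are limma's unless edgeR 4.0.16 or DESeq2 1.42.0, both run on recovered reads, is named. Summed levels are sums of normalised read counts. The tests were also run on simulated reads with known changes. That simulation drew the libraries independently, with no pairing by mouse and no mixture of tissues, so it does not check the tests on these points. Titles give each library its mouse, and the design text speaks of matched tumours, which pairs the replicate numbers by animal; same-mouse deviations from the group means correlated at 0.1, -0.15, 0.03 and 0.01. The main fit has no block. P-values measure the spread between these 4 mice of 1 line. The members and the lists (5 of epithelial context, 9 of cell type markers) were chosen with earlier results of these data known. Named were all members, the 4 genes of each context list with the smallest p, a few fixed genes, the 2 highest markers of each cell type list and the 5 genes most like the members' mean; 1 gene under this rule is not reported here. Left-out-library fits kept the same genes. Exon lengths are from GENCODE M21, which may differ from the authors' annotation. Figures used Matplotlib 3.10.9.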

Additional observations from a re-analysis of the deposited data

Results flagged for a closer look

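Among 18 sets of 4 libraries (9 members, 2 tissues), 2 held a library far from the other 3. Chance gives about 1 in 20 such sets if values are normally distributed. The gaps were taken on normalised read counts, not on the log scale of the tests, and the sets share the same libraries. That rate is therefore only a rough guide. Muc1 stood at 7.77 in BC primary tumor 2, with a gap of 0.935 of the group's range to the nearest library, and Tjp3 stood at 4.46 in the same library, with a gap of 0.884. Both are higher than the other 3 primary tumours, and the log2 changes without that library were 4.52 for Muc1 and 1.46 for Tjp3 (limma adjusted p = 0.000156 and 0.0856).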

How the results depend on the processing

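Of 170 values of member changes under 19 alternatives, 164 kept their sign and their side of the threshold. Cldn7 turned to -0.005 without BC primary tumor 4 (-0.005 to 0.623 without 1 library each) and Esrp1 to 0.207 without BC lung metastasis 2 (-0.693 to 0.207), neither being called. Epcam came past the threshold with array weights, with the mouse as a block and without BC lung metastasis 4 (log2 change -1.46), and Tjp3 with array weights. The mouse as a replicate block changed no other member's call, and lowered the genes called lower in lung metastases to 176, against 274. The members called numbered 2, and 4 with array weights; without 1 library each they numbered 2 to 3. The genes called numbered 1279, and 2283 with array weights, 700 with edgeR and the block, 1985 with DESeq2 and 711 to 1603 without 1 library each (711, 851 and 852 without BC primary tumor 4, 1 and 3). Among other genes the sign turned, in no called gene, for Esrp2 with array weights (-0.003) and without BC lung metastasis 3 (-0.118; -0.118 to 0.454 without 1 library each), Krt7 with array weights (-0.175), without BC lung metastasis 4 (-0.12) and without BC primary tumor 2 (-0.052; -0.12 to 0.31), and, without BC lung metastasis 3, Tjp1 (-0.094; -0.094 to 0.366) and Vim (0.018; -0.504 to 0.018). Of 190 counts of the 5 context lists 41 moved by over 1.5 times or went to or from 0. The causes were not tested. Median-ratio scaling shifted the median of all genes to -0.02, against -0.06. Depth limits little here, since the lowest count of a member was 36 reads.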
